A study of Mus musculus with 2 samples.

Results

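The epidermal cornification genes are a set of 36 mouse genes, taken by symbol, whose products build, seal, join or shed the outermost dead cells of the epidermis. All 36 symbols were found among the 43346 genes in the tables. Poly(A) RNA of mammary gland was measured in 2 libraries, replicate 1 and replicate 2, which form 1 group. The labels of both name the inbred mouse strain C57BL/6J, an age of 8 weeks and a pool of male and female littermates, and name no allele or treatment. Reproductive state is not given in the sources used here, and both libraries carry the same donor label although their biosamples differ. The comparison is therefore of 2 libraries of one tissue, and every difference below has 1 library on each side, with no replicate check and no p-value.

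During cornification a keratinocyte moves outward through the epidermis, fills with keratin filaments and exchanges its plasma membrane for a cornified envelope, a shell of proteins joined by transglutaminases. Ceramides made with the help of lipoxygenases are attached to the outside of that shell. Corneodesmosomes hold the dead cells together until kallikrein proteases, kept in check by inhibitors, cut them and the cells are shed. In skin these genes are active in the suprabasal layers, whereas the mammary gland holds ducts of luminal and myoepithelial cells in fat, and stratified epithelium belongs to the nipple and the overlying skin.

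Replicate 1 held 56323489 fragments assigned to genes and replicate 2 held 42400470. Genes that mark the labelled tissue were present in both libraries. The 4 adipocyte markers summed to 3183 TPM in replicate 1 and 3732 in replicate 2. The 6 luminal epithelial markers summed to 864 TPM in replicate 1 and 1531 in replicate 2, and the 7 myoepithelial markers to 679 and 558. Single markers within a list went opposite ways. Adipoq stood at 1462 TPM in replicate 1 and 891 in replicate 2, but Plin1 at 502 and 1290. Of the luminal markers, Prlr stood at 58.0 TPM in replicate 1 and 26.9 in replicate 2, but Cldn3 at 83.3 and 251. The libraries stood further apart in other tissue signals. The 10 skeletal muscle markers took 2.91% of all TPM in replicate 1 against 0.00237% in replicate 2, and mitochondrially encoded genes took 17.4% in replicate 1 against 4.28% in replicate 2. The difference between libraries also followed base composition. Its median over all expressed genes was 0.64 on the log2 TPM scale at a GC content of 38.9% and -1.06 at 61.4%.

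The cornification genes were a minor part of the RNA, and more of them passed the floor in replicate 1, the deeper library. Their levels, in TPM (fragments scaled by transcript length and by library), summed to 333 TPM in replicate 1 and 176 TPM in replicate 2, a mean of 255 ± 111 (SD, n = 2). These sums were 0.0333% of all TPM in replicate 1 and 0.0176% in replicate 2. The median member stood at 2.135 TPM in replicate 1 and 0.135 TPM in replicate 2. More than 3 fragments, the floor used for detection, were found for 31 members in replicate 1 and 23 in replicate 2, and the same 23 were above it in both. Over all genes 19327 passed it in replicate 1 and 18137 in replicate 2, whose depths differ as given above. A level of 1 TPM or more was reached by 23 members in replicate 1 and 14 in replicate 2, and 10 TPM or more by 6 in replicate 1 and 4 in replicate 2. In RNA of whole tissue, fewer cells of a type and less RNA per cell cannot be told apart.

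A few genes carried most of the signal, and their shares differed between the libraries. Dmkn, a secreted epidermal protein, made up 29.4% of the members' TPM in replicate 1 and 2.70% in replicate 2. Krtdap, another secreted epidermal protein, made up 15.8% in replicate 1 and 0.641% in replicate 2. Cdsn, the corneodesmosome adhesion protein, took 17.4% in replicate 1 and 33.3% in replicate 2, and Sfn, the epithelial stratifin, took 7.41% in replicate 1 and 23.9% in replicate 2. Together Cdsn, Sfn, Sprr1a and Sbsn held 34.4% of the members' TPM in replicate 1 and 77.1% in replicate 2. Without Cdsn the members' sum was 275.5 TPM in replicate 1 and 117 in replicate 2.

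**Figure D1:**
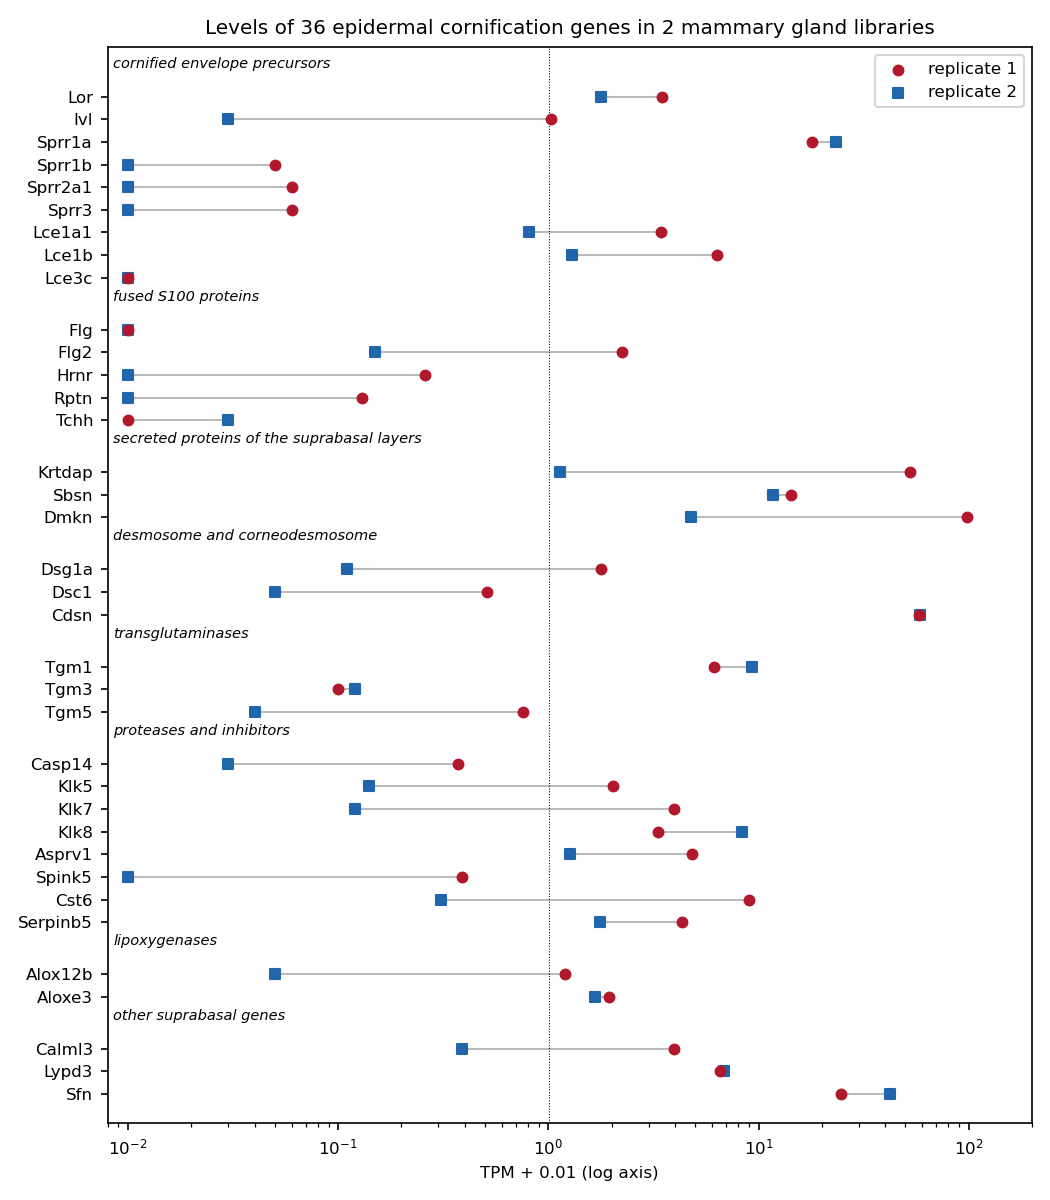
Levels of the 36 cornification genes as TPM + 0.01 on a log axis, 1 row per gene grouped by role; circles are replicate 1, squares replicate 2, and the dotted line marks 1 TPM. The points of Cdsn lie on each other near 58 TPM, whereas those of Krtdap lie at 52.8 TPM in replicate 1 and 1.13 in replicate 2.

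A gene was called different between the libraries where the whole 95% Clopper-Pearson interval of its count ratio, replicate 1 over replicate 2 scaled by total counts, lay beyond 2-fold. At least 10 fragments over both libraries were required, which 30 of the 36 members had. By this rule 20 members were higher in replicate 1 and 0 were higher in replicate 2. Over all 18564 genes tested, 9.80% were called higher in replicate 1 and 8.02% in replicate 2. Genes of like base composition, with a GC content between 48.9% and 56.1% as in the central part of the member list, were called higher in replicate 1 in 6.87% of 6990 cases. The median log2 TPM difference was 0.44 over all 36 members and 0.01 over all genes tested. The intervals cover counting error only, and nothing in the labels says that the pools came from different animals.

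The split of the calls depended on the scaling. With spike-in totals, 16 members were called higher in replicate 1 and 3 higher in replicate 2, where 3.27% of all genes were called higher in replicate 1 and 26.6% in replicate 2. With DESeq2 size factors 19 members were higher in replicate 1 and 1 in replicate 2, where 7.74% of all genes were higher in replicate 1 and 10.05% in replicate 2. With totals taken without mitochondrial and muscle genes 20 were higher in replicate 1 and 0 in replicate 2, where the shares of all genes were 13.7% in replicate 1 and 5.84% in replicate 2. After the GC trend was removed, 20 members were higher in replicate 1 and 0 in replicate 2, where 5.27% of all genes were higher in replicate 1 and 6.59% in replicate 2. Serpinb5 was then no longer called and Lor was. The 10 tested members that were not called had a higher median GC content, 56.7%, than the 20 called ones, 51.3%. Muscle and mitochondrial RNA moved with the same libraries, and beyond the totals taken without them their part in the result was not tested.

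**Figure D2:**
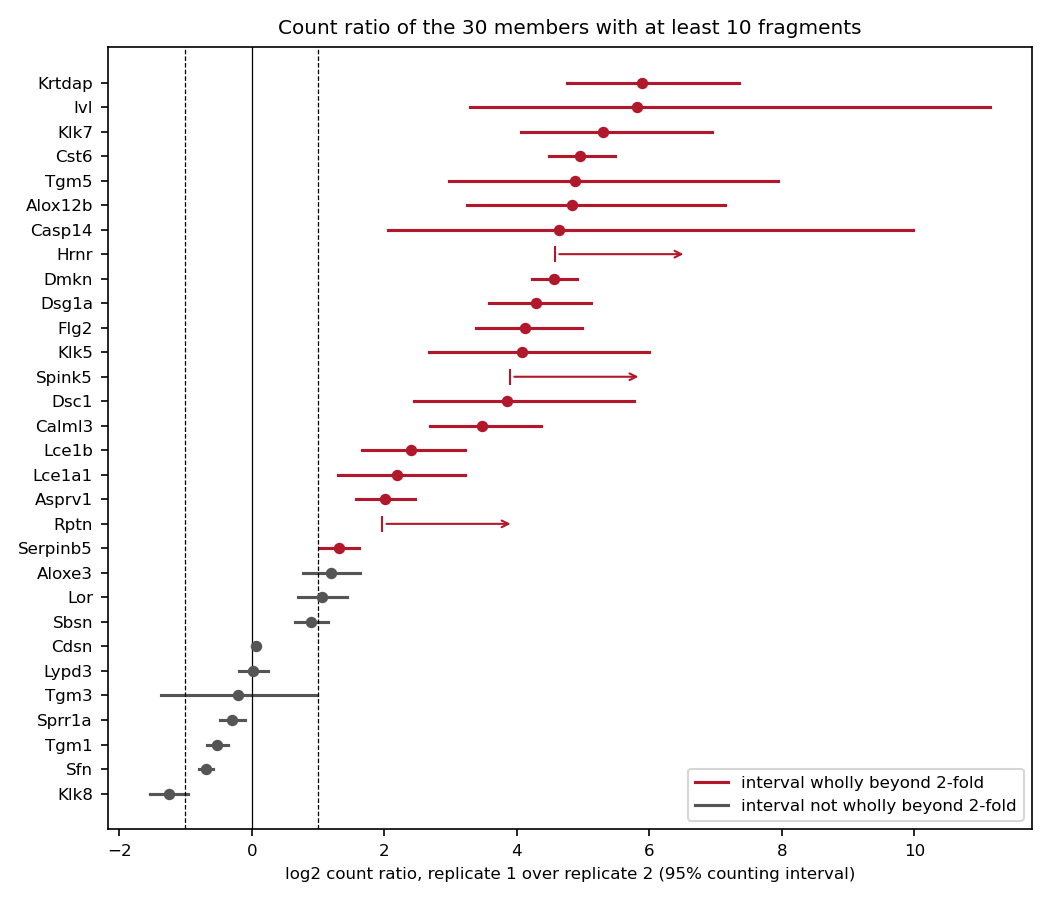
Log2 count ratio, replicate 1 over replicate 2, of the 30 members with at least 10 fragments; points are ratios, lines 95% counting intervals, arrows lower bounds for members with 0 fragments in replicate 2, and dashed lines 2-fold. The intervals of 20 members lie wholly above 2-fold and none lies wholly below it.

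Cornified envelope precursors are the bricks of the shell. Of the 9, 5 were tested and 3 called, all higher in replicate 1, beside 9.80% of all genes tested. Ivl, involucrin, an early scaffold of the envelope on chromosome 3 (92570902 to 92573735), had 75 fragments and 1.02 TPM in replicate 1 against 1 fragment and 0.02 TPM in replicate 2. Its log2 count ratio was 5.82, with an interval of 3.30 to 11.1 that is wide because of the single fragment. The late envelope genes Lce1b and Lce1a1, whose products join the shell in the outermost living cells, were also called. Lce1b stood at 6.32 TPM in replicate 1 and 1.28 TPM in replicate 2, with a log2 count ratio of 2.40 (1.66 to 3.22). Lce1a1 stood at 3.42 TPM in replicate 1 and 0.80 in replicate 2, with a ratio of 2.20 (1.30 to 3.21). Neither was called with spike-in totals, where the ratios were 1.63 for Lce1b and 1.43 for Lce1a1. The Lce genes are close copies of each other, so the split of reads among them is uncertain.

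Lor and Sprr1a were present in both libraries without being called. Lor, loricrin, the main protein of the mature envelope in skin, had 235 fragments and 3.47 TPM in replicate 1 and 85 fragments and 1.77 TPM in replicate 2. Its log2 count ratio was 1.06 (0.69 to 1.43), and 2.13 once the GC trend was removed, beyond 2-fold. At 68.3% its GC content was the highest among the members. Sprr1a, a small proline-rich cross-bridging protein, was the most abundant precursor in both libraries. It stood at 17.9 TPM in replicate 1 and 23.3 TPM in replicate 2, a mean of 20.6 ± 3.81 (SD, n = 2), with a log2 count ratio of -0.29 (-0.49 to -0.10) that became 0.01 without the GC trend. Its relatives Sprr1b and Sprr3 had 1 and 2 fragments in replicate 1 and 0 in replicate 2, and Lce3c had 0 in both. Sprr2a1 had 6.46 fragments in replicate 1 and 0 in replicate 2. Its locus overlaps that of the near-identical Sprr2a2, at 5.11 TPM in replicate 1 and 6.48 in replicate 2, so the division of reads between them is uncertain.

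The fused S100 proteins bundle keratin filaments or reinforce the envelope. Of the 5, 3 were tested, and these 3 were called higher in replicate 1, beside 9.80% of all genes tested. All of them were at low levels. Flg2, filaggrin 2, had 349 fragments and 2.24 TPM in replicate 1 and 15 fragments and 0.14 TPM in replicate 2, with a log2 count ratio of 4.13 (3.39 to 4.98). Hrnr, hornerin, had 119 fragments in replicate 1 and 0 in replicate 2, with a lower limit of 4.58 for the log2 count ratio. Rptn, repetin, had 21 fragments in replicate 1 and 0 in replicate 2, with a lower limit of 1.97. The best-known gene of the family was missing from both. Flg, the profilaggrin gene, had 0 fragments in both libraries, and its transcript is built of long repeats on which reads are hard to place. Tchh, trichohyalin of the inner root sheath, had 1 fragment in replicate 1 and 3 in replicate 2.

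The secreted proteins of the suprabasal layers included the highest level in replicate 1 and the highest ratio among members with fragments in both libraries, although the interval of that ratio overlapped those of others such as Ivl. Krtdap, the keratinocyte differentiation-associated protein on chromosome 7 (30787896 to 30791097), had 474 fragments and 52.8 TPM in replicate 1 against 6 fragments and 1.13 TPM in replicate 2. The log2 count ratio was 5.89 (4.76 to 7.35), a fold of 59.5. The deposited posterior mean TPM of Krtdap was 56.6 in replicate 1 and 7.05 in replicate 2, so its level in replicate 2 depends on the estimate used. Dmkn, dermokine, had 2421 fragments and 97.9 TPM in replicate 1 and 77 fragments and 4.75 TPM in replicate 2, with a log2 count ratio of 4.56 (4.24 to 4.91) and a fold of 23.7. It was the highest member in replicate 1 and the eighth in order in replicate 2. Sbsn, suprabasin, was not called. It had 453 fragments and 14.2 TPM in replicate 1 and 183 fragments and 11.7 TPM in replicate 2, with a log2 count ratio of 0.90 (0.65 to 1.15).

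Dmkn, Krtdap and Sbsn are neighbours. Sbsn, Dmkn and Krtdap lie in this order on the plus strand of chromosome 7 within 39.6 kb, with gaps of 7.62 and 6.83 kb. A transcript that the later annotation assigns to the non-coding gene Tmem147os was counted under Sbsn and took 20.01% of its TPM in replicate 1 and 47.3% in replicate 2. On the remaining transcripts Sbsn had 11.4 TPM in replicate 1 and 6.15 TPM in replicate 2, with a log2 count ratio of 1.17 (0.89 to 1.45), still not wholly beyond 2-fold. That recount was chosen after the values were seen.

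The kallikreins gave a second case of unlike neighbours. Klk8 and Klk7 follow each other on chromosome 7 with a gap of 7.47 kb, at 43797577 to 43803826 and 43811294 to 43816359. Klk7, a chymotrypsin-like protease that cuts corneodesmosomes, had 263 fragments and 3.97 TPM in replicate 1 and 5 fragments and 0.11 TPM in replicate 2, with a log2 count ratio of 5.31 (4.07 to 6.94). Klk5, which activates other kallikreins in skin, had 90 fragments and 2.03 TPM in replicate 1 against 4 fragments and 0.13 TPM in replicate 2, with a ratio of 4.08 (2.68 to 5.99). Klk8, also called neuropsin, ran the other way. It had 159 fragments and 3.32 TPM in replicate 1 and 285 fragments and 8.37 TPM in replicate 2, with a log2 count ratio of -1.25 (-1.54 to -0.97), just short of a call. It was beyond 2-fold, higher in replicate 2, with TMM factors, DESeq2 size factors and spike-in totals, and stood at -0.77 without the GC trend.

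**Figure D3:**
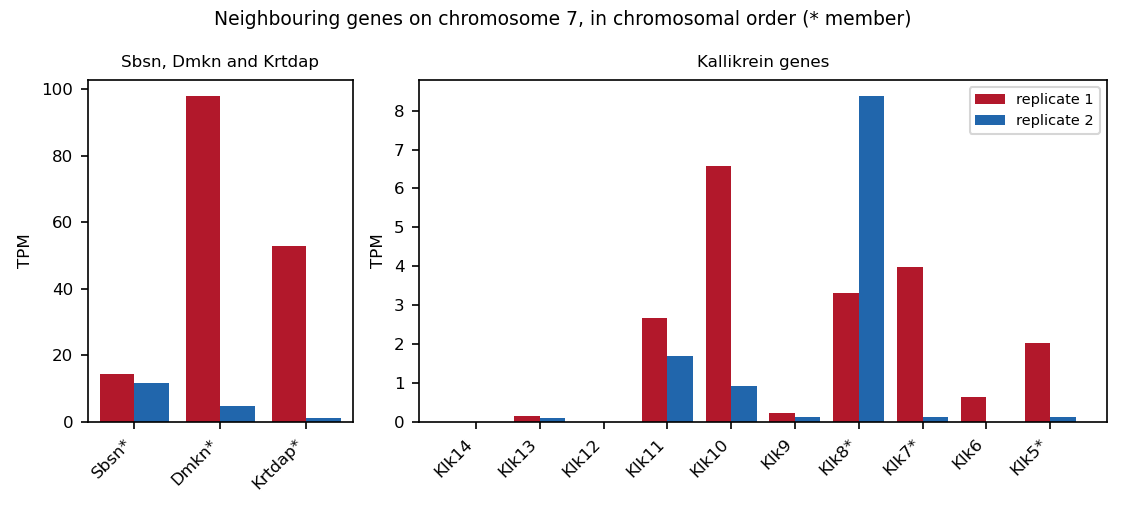
TPM of neighbouring genes on chromosome 7 in chromosomal order, replicate 1 left of replicate 2 in each pair; members carry an asterisk. Sbsn has bars of 14.2 TPM in replicate 1 and 11.7 in replicate 2 beside the unequal Dmkn and Krtdap, and Klk8 is the only kallikrein shown with the taller bar in replicate 2.

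The promoter of Dmkn, which lies between Sbsn and Krtdap, is not printed. Those of the unlike neighbours Krtdap, Sbsn, Klk7 and Klk8, and of Ivl on another chromosome, are shown as proximal sequence. Their relation to the ratios was not tested. Each runs 5′ to 3′ on the gene's strand over the 250 bases before and 50 after the RefSeq start on GRCm38.p6, and capitals mark AP-1 or C/EBP motif letters. The AP-1 motif was searched as TGANTCA, which reads alike on both strands, and the C/EBP motif as TTGCNNAA or its reverse complement TTNNGCAA. The windows are Krtdap at chr7:30787655-30787954, Sbsn at chr7:30751221-30751520, Klk7 at chr7:43811044-43811343 and Klk8 at chr7:43797327-43797626, all on the plus strand, and Ivl at chr3:92573686-92573985 on the minus strand.
Krtdap: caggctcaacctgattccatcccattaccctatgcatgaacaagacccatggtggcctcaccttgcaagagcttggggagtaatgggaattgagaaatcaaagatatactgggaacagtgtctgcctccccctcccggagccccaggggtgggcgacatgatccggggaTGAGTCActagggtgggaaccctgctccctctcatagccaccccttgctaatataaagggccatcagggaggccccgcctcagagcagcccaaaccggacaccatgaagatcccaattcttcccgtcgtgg
Sbsn: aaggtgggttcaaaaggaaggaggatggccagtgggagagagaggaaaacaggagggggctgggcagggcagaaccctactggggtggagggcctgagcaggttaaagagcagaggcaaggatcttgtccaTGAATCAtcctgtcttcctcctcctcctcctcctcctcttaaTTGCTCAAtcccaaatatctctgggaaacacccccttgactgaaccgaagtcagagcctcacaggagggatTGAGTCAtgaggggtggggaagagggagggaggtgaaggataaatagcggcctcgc
Klk7: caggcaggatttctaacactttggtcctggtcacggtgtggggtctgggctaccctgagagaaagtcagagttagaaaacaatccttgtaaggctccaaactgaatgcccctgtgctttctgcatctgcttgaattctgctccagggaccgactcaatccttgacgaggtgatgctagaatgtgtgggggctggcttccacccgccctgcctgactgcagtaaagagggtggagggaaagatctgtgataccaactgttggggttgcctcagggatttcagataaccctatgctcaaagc
Klk8: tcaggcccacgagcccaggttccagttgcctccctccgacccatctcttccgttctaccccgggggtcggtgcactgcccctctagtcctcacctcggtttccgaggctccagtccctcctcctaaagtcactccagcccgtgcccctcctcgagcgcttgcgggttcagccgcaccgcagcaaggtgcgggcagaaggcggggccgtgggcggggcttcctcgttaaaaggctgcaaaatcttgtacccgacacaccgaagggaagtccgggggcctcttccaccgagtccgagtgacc
Ivl: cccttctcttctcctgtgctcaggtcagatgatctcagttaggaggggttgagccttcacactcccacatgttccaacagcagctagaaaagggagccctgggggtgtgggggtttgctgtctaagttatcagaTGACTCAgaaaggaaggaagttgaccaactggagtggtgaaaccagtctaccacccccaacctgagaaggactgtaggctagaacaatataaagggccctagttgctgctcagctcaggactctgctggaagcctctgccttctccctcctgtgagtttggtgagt

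The Krtdap window held 1 AP-1 match, at base 170 of the window, the Ivl window 1 at base 135, and the Sbsn window 2, at bases 132 and 245. Sbsn also held a C/EBP match at base 174, which overlaps neither AP-1 match. The letters of both motifs were absent from the Klk7 and Klk8 windows. RefSeq windows were matched for 30 members, 34 windows in all, and 11 members had an AP-1 match in any window. By window, 13 of the 34 held an AP-1 match, against 7.81% of all 32851 windows. Of the 15 called members with a window 6 held it, and of the 15 other members 5 did. They were Dmkn, Flg, Flg2, Ivl, Krtdap, Rptn, Lor, Sbsn, Serpinb5, Sprr1a and Sprr1b. A C/EBP match stood in 9 of the 30 members, 3 of the called and 6 of the others. By window it stood in 11 of the 34, against 10.8% of all windows. A match describes letters in the window and not a bound site, and the motif counts were not tested.

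Among the 4 members above 10 TPM in both libraries Cdsn differed least on the TPM scale, whereas the other adhesion genes were called. Cdsn, corneodesmosin, on chromosome 17 (35552128 to 35557180), had 6160 fragments and 57.9 TPM in replicate 1 and 4450 fragments and 58.8 TPM in replicate 2, a mean of 58.3 ± 0.615 (SD, n = 2). Its log2 count ratio was 0.06 (0.00 to 0.12), with TMM factors -0.03 and without the GC trend 0.60. It was the most abundant member in replicate 2. Dsg1a, desmoglein 1, a cadherin of the upper epidermis, had 418 fragments and 1.77 TPM in replicate 1 against 16.3 fragments and 0.10 TPM in replicate 2, with a log2 count ratio of 4.30 (3.58 to 5.12). Dsg1a has close copies in Dsg1b and Dsg1c, which can share its reads. Dsc1, desmocollin 1, its partner cadherin, had 77 fragments in replicate 1 and 4 in replicate 2, with a ratio of 3.86 (2.44 to 5.77).

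The transglutaminases, which crosslink the envelope, divided. Tgm1, the membrane-bound enzyme whose loss causes lamellar ichthyosis in humans, had 678 fragments and 6.13 TPM in replicate 1 and 730 fragments and 9.28 TPM in replicate 2. Its log2 count ratio was -0.52 (-0.67 to -0.36), -0.12 without the GC trend and -1.28 with spike-in totals, the last beyond 2-fold. Tgm5, an enzyme of the upper layers, had 78 fragments and 0.75 TPM in replicate 1 against 2 fragments and 0.03 TPM in replicate 2, with a log2 count ratio of 4.88 (2.97 to 7.95), and was called. Tgm3, used in the hair follicle as well as the epidermis, had 15 fragments and 0.09 TPM in replicate 1 and 13 fragments and 0.11 TPM in replicate 2. Its ratio of -0.20 had an interval of -1.37 to 0.99, which spanned no difference and reached beyond 2-fold only toward replicate 2.

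Proteases and inhibitors formed the role with the most tested members and the most calls. Of 8 tested, 7 were called higher in replicate 1, beside 9.80% of all genes tested, with Klk8 the exception. Cst6, cystatin M/E, an inhibitor of cathepsins, had 1449 fragments and 8.98 TPM in replicate 1 and 35 fragments and 0.30 TPM in replicate 2, with a log2 count ratio of 4.96 (4.48 to 5.49). Asprv1, the retroviral-like protease that processes profilaggrin, had 273 fragments and 4.80 TPM in replicate 1 against 51 fragments and 1.26 TPM in replicate 2, with a ratio of 2.01 (1.57 to 2.47) that was 1.25 and not called with spike-in totals. Casp14, a caspase confined largely to cornifying epithelium, had 33 fragments in replicate 1 and 1 in replicate 2, with a ratio of 4.63 (2.06 to 9.98). Spink5, the inhibitor of Klk5 and Klk7 that is defective in Netherton syndrome in humans, had 75 fragments in replicate 1 and 0 in replicate 2, with a lower limit of 3.90 for the log2 count ratio. Serpinb5, maspin, is also a gene of mammary myoepithelial cells. It had 422 fragments and 4.30 TPM in replicate 1 and 127 fragments and 1.75 TPM in replicate 2, with a ratio of 1.32 (1.03 to 1.62) that was 0.38 without the GC trend and was not called then, nor with TMM, DESeq2 or spike-in scaling.

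Alox12b and Aloxe3 act one after the other on ceramide-bound linoleate, and they lie beside each other on chromosome 11. Alox12b had 114 fragments and 1.19 TPM in replicate 1 and 3 fragments and 0.04 TPM in replicate 2, with a log2 count ratio of 4.84 (3.25 to 7.14). Aloxe3 had 189 fragments and 1.93 TPM in replicate 1 against 62 fragments and 1.66 TPM in replicate 2, with a ratio of 1.198 (0.78 to 1.64), and was not called. Only the first enzyme of the pair passed the call, and the difference between the 2 ratios was not tested.

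The remaining members, Calml3, Lypd3 and Sfn, showed 3 patterns. Calml3, a calmodulin-like protein of stratified epithelium, had 206 fragments and 3.93 TPM in replicate 1 and 14 fragments and 0.38 TPM in replicate 2, with a log2 count ratio of 3.47 (2.69 to 4.37). Lypd3, a surface glycoprotein anchored to the membrane by lipid, had 400 fragments and 6.55 TPM in replicate 1 against 296 fragments and 6.82 TPM in replicate 2, a mean of 6.69 ± 0.191 (SD, n = 2), and a log2 count ratio of 0.02 (-0.20 to 0.25). Sfn, stratifin, on chromosome 4 (133600556 to 133602168), had 1494 fragments and 24.7 TPM in replicate 1 and 1814 fragments and 42.2 TPM in replicate 2. Its ratio was -0.69 (-0.79 to -0.59), but 0.16 without the GC trend and -1.45, beyond 2-fold, with spike-in totals. Its sign thus turned with the correction for base composition.

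The called and uncalled members were also summed. The 20 called members summed to 197 TPM in replicate 1 and 12.3 TPM in replicate 2, as the rule for a call requires. The 10 tested members that were not called summed to 136 TPM in replicate 1 and 164 TPM in replicate 2. These 10 were Lor, Sprr1a, Sbsn, Cdsn, Tgm1, Tgm3, Klk8, Aloxe3, Lypd3 and Sfn. By role, the secreted proteins summed to 165 TPM in replicate 1 and 17.5 in replicate 2, and the proteases and inhibitors to 28.1 TPM in replicate 1 and 11.9 in replicate 2. Envelope precursors summed to 32.3 TPM in replicate 1 and 27.2 in replicate 2, adhesion genes to 60.2 TPM in replicate 1 and 58.9 in replicate 2, and transglutaminases to 6.97 TPM in replicate 1 and 9.42 in replicate 2.

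**Figure D4:**
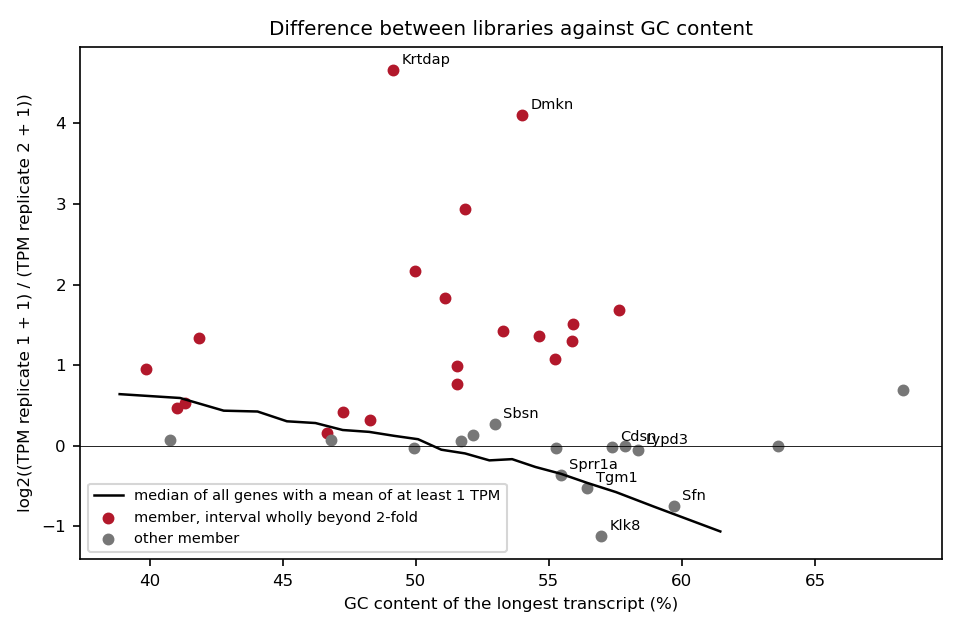
Log2((TPM replicate 1 + 1) / (TPM replicate 2 + 1)) of each member against the GC content of its longest transcript in percent; red points are called members, grey points the others, and the line is the median over all genes with a mean of at least 1 TPM. Krtdap and Dmkn lie far above the line, while Sprr1a, Tgm1 and Sfn lie on or near it.

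Chromosome 3 carries 14 of the 36 members within 1369 kb, in the epidermal differentiation complex. Within it 51 genes were taken by name: the members, symbols starting with Lce or Sprr, and Crnn, Crct1, Kprp, Tchhl1, Lelp1 and Smcp. Any other genes there were not counted. Of the 51 genes, 24 were at or under the floor in both libraries, 14 were called higher in replicate 1 and 0 higher in replicate 2. These 51 genes summed to 81.6 TPM in replicate 1 and 41.0 TPM in replicate 2. Among the 37 that are not members 16 were tested and 8 called, all higher in replicate 1, beside 9.80% of all genes tested. Crct1, a cysteine-rich gene of the complex, stood at 8.72 TPM in replicate 1 and 0.77 TPM in replicate 2. Kprp, keratinocyte proline-rich protein, stood at 2.94 TPM in replicate 1 and 0.27 in replicate 2, and Lce1l at 4.39 TPM with 0 fragments in replicate 2. Lce1m, Lce1a2, Lce1c and Lce1d were called too, at between 2.23 and 6.83 TPM in replicate 1 and 0.28 and 1.77 TPM in replicate 2. The eighth called gene, Lce1i, was picked out after its values were seen.

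The transcript tables were read for members with several forms. Of the 20 members with a mean of at least 1 TPM, 13 had a single transcript in the tables. The same transcript led in both libraries in 4 of the other 7. A short coding form of Dmkn, of 662 nt, made up 88.9% of the gene in replicate 1 and 90.3% in replicate 2 and stood at 87.1 TPM in replicate 1 and 4.29 in replicate 2. Other forms of Dmkn also had more fragments in replicate 1, among them one of 2063 nt with 397 fragments in replicate 1 and 0 in replicate 2, and one of 1926 nt with 243 fragments in replicate 1 and 12.95 in replicate 2. The leading form of Tgm1 took 77.2% in replicate 1 and 79.5% in replicate 2, and that of Serpinb5 took 93.6% in replicate 1 and 97.8% in replicate 2. Flg2 led with a transcript of 1551 nt that the later annotation does not name, at 57.3% in replicate 1 and 62.2% in replicate 2. The leading form differed in Aloxe3, Krtdap and Sbsn. In Krtdap it was a coding form of 470 nt with 37.6% in replicate 1 and one of 345 nt with 66.1% in replicate 2, the share in replicate 2 resting on 3 fragments. In Aloxe3 it was the coding form of 3019 nt with 38.8% in replicate 1 and a retained-intron form of 414 nt with 32.7% in replicate 2, which rested on 3.33 fragments beside 38.4 for the coding form.

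Keratins of the same layers were read from lists of other pathway genes. Of 7 suprabasal keratins 6 were tested and 3 called, all higher in replicate 1, beside 9.80% of all genes tested. The 7 summed as a list to 55.9 TPM in replicate 1 and 9.58 in replicate 2. Krt10, the main keratin of the suprabasal layers, stood at 17.8 TPM in replicate 1 and 2.15 TPM in replicate 2, and its partner Krt1 at 5.42 TPM in replicate 1 and 0.31 in replicate 2. Krt77, a keratin of eccrine ducts in humans, stood at 23.1 TPM in replicate 1 and 1.15 in replicate 2. Krt80, at 6.14 TPM in replicate 1 and 3.09 in replicate 2, and Krt23, at 2.89 TPM in replicate 1 and 2.55 in replicate 2, were not called, and Krt2 had 0 fragments in both.

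Of 10 basal and squamous keratins 6 were tested and 2 called, both higher in replicate 1, beside 9.80% of all genes tested. So few tested genes give no share to set against it. The list summed to 176 TPM in replicate 1 and 122 in replicate 2. Krt14 stood at 58.5 TPM in replicate 1 and 47.7 TPM in replicate 2, and its partner Krt5 at 57.3 TPM in replicate 1 and 35.8 in replicate 2. Both are also markers of mammary myoepithelial cells, and neither was called. Krt15, a keratin of the basal layer and the hair follicle bulge, was called, at 25.1 TPM in replicate 1 against 5.08 in replicate 2, as was Krt6a, at 4.09 TPM in replicate 1 against 0.85 in replicate 2. Krt17 stood at 30.8 TPM in replicate 1 and 31.9 in replicate 2.

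Of 13 genes of the desmosomal plaque and junctions 12 were tested and 2 called, both higher in replicate 1, beside 9.80% of all genes tested. The median log2 TPM difference was 0.39. Jup, plakoglobin, stood at 147 TPM in replicate 1 and 213 TPM in replicate 2, Perp at 53.9 TPM in replicate 1 and 40.2 in replicate 2, and Pkp3, plakophilin 3, at 25.4 TPM in replicate 1 and 44.3 in replicate 2. These serve simple as well as stratified epithelium. The called ones were Dsg3 and Dsg1b, cadherins of stratified epithelium, named after their values were seen, at 0.71 and 0.58 TPM in replicate 1 and 0.01 and 0.03 TPM in replicate 2.

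Among 20 barrier lipid genes 19 were tested and 8 called, all higher in replicate 1, beside 9.80% of all genes tested. The median log2 TPM difference was 0.33. Elovl4, which makes the very long fatty acids of skin ceramides, stood at 11.1 TPM in replicate 1 and 1.10 TPM in replicate 2. Fa2h, a fatty acid hydroxylase, stood at 9.41 TPM in replicate 1 and 3.04 in replicate 2, Alox12e at 4.31 TPM in replicate 1 and 0.97 in replicate 2, and the ceramidase Acer1 at 2.86 TPM in replicate 1 and 0.01 in replicate 2, the last on 1 fragment in replicate 2. Abundant genes of the list were not called. Elovl1 stood at 186 TPM in replicate 1 and 161 in replicate 2, and Ugcg, the glucosylceramide synthase, at 23.4 TPM in replicate 1 and 49.7 in replicate 2.

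Of 23 other genes of proteolysis and filaggrin breakdown 16 were tested. Klk10 and Ctsl were called, 2 of these 16, both higher in replicate 1, beside 9.80% of all genes tested. The median difference was 0.00. Klk10 stood at 6.57 TPM in replicate 1 and 0.91 TPM in replicate 2, and Ctsl, cathepsin L, at 75.1 TPM in replicate 1 and 35.2 in replicate 2. Ctsd, a lysosomal protease of most cells, led the list at 1439 TPM in replicate 1 and 1361 in replicate 2. A further 13 S100 genes on chromosome 3 outside the region above, which encode small calcium-binding proteins, were read. Of these, 12 were tested and 2 called higher in replicate 1, beside the same 9.80%. They were S100a8 at 6.51 TPM in replicate 1 and 0.73 in replicate 2 and S100a7a at 2.97 TPM in replicate 1 and 0.68 in replicate 2, whereas the abundant S100a6 stood at 639 TPM in replicate 1 and 415 TPM in replicate 2.

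A list of 17 transcription factors used in the epidermis was also read. Of these, 1 was called higher in replicate 1 and 9 higher in replicate 2, against 9.80% and 8.02% of all genes in those directions, with a median log2 TPM difference of -0.88, and -0.90 without the GC trend. Cebpb stood at 75.4 TPM in replicate 1 and 640 TPM in replicate 2, and Cebpa at 152 TPM in replicate 1 and 976 in replicate 2. Both are also factors of adipocytes. Gata3, of mammary luminal cells as well, stood at 48.0 TPM in replicate 1 and 128 in replicate 2, and Klf4 at 35.4 TPM in replicate 1 and 88.2 in replicate 2. Hopx, Maf, Tfap2c and Tfap2a were also among the 9. Pou2f3, named after its values were seen, was the factor called higher in replicate 1, at 0.96 TPM in replicate 1 and 0.14 in replicate 2. Trp63, the regulator of stratified epithelium, stood at 10.01 TPM in replicate 1 and 5.11 in replicate 2 and was not called. Over the 140 genes of the 8 lists 104 were tested, and 28 were called higher in replicate 1 and 9 in replicate 2. The shares of all genes tested were the same 9.80% and 8.02%. The median difference over the 140 genes was 0.18.

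**Figure D5:**
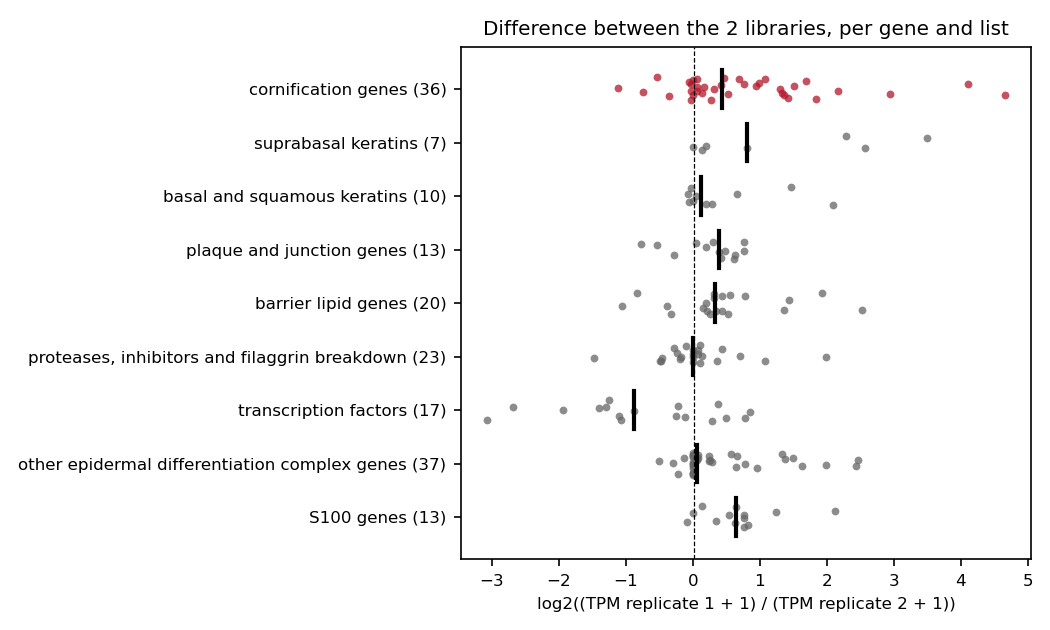
Log2((TPM replicate 1 + 1) / (TPM replicate 2 + 1)) of each gene in the cornification set and in the 8 lists of other pathway genes, with the number of genes in brackets; points are genes, black bars list medians and the dashed line the median of all genes tested. The median of the cornification genes is 0.44 and that of the transcription factors -0.88.

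Markers of other skin cells were read in the same libraries, since a piece of mammary tissue can carry skin. Of 5 sebocyte markers, all tested, 4 were called, each higher in replicate 1, beside 9.80% of all genes tested. The list summed to 18.9 TPM in replicate 1 and 3.85 TPM in replicate 2. Mc5r stood at 9.31 TPM in replicate 1 and 2.33 in replicate 2, Krt79 at 5.29 TPM in replicate 1 and 0.88 in replicate 2, and Awat1 at 2.04 TPM in replicate 1 and 0.03 in replicate 2. Of 19 hair shaft and root sheath markers 5 had enough fragments to be tested, and 0 of these were called. Krt71 had 21 fragments in replicate 1 and 18 in replicate 2, Krt32 had 16 fragments in replicate 1 and 2 in replicate 2, and Foxn1, named after its values were seen, had 23 fragments in replicate 1 and 3 in replicate 2. The 19 markers summed to 1.26 TPM in replicate 1 and 0.88 TPM in replicate 2, and 12 were at or under the floor in both. Hair keratins at 0 in both libraries included Krt25, Krt27, Krt33a, Krt81 and Krt86. Of 5 melanocyte markers 4 were tested and 1 called, Dct, higher in replicate 1, too few to set against the 9.80%. The list sums were 3.82 TPM in replicate 1 and 1.63 in replicate 2. Cd207, of Langerhans cells, stood at 1.83 TPM in replicate 1 and 1.53 in replicate 2 and was not called. The part of skin or of any other admixed tissue in the differences between the libraries was not tested.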

How the data were processed

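The values came from tables of genes and of transcripts deposited by the authors, whose text notes name mm10 and GENCODE M4. Per the file headers the authors' columns are expected counts, TPM, FPKM, posterior mean TPM and each transcript's percent of its gene. Which aligner and which quantifier were used is not given in the sources used here. Stranded paired-end libraries with 76 nt reads were made from rRNA-depleted poly(A) RNA over 200 nt with spike-ins, per the labels. Entries with a number for a name (26248) and spike-ins (97) were kept out of gene totals. Contigs and junctions on mm9 were not used here.

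GENCODE M21, also on mm10, gave names, positions and GC content, and promoter sequences came from RefSeq on GRCm38.p6. The expected counts deposited by the authors were rounded to whole numbers, and the ratio of each gene with at least 10 fragments was scaled by total counts and given a 95% Clopper-Pearson interval. A gene was called where the whole interval lay beyond 2-fold. Differences in TPM used a pseudocount of 1, on the log2(TPM + 1) scale, which understates changes of low genes. The GC trend was the median in 20 bins, from genes with a mean of at least 1 TPM for TPM differences and at least 100 fragments for count ratios, held at its end values beyond the outer bins. Depth was 56323489 and 42400470 fragments in replicate 1 and replicate 2, and the floor was 3 fragments per library. Intervals and floors cover counting error only. The call was tested on simulated counts of 18564 genes for this comparison, which held counting error only and no GC trend. All 200 genes changed 8-fold, drawn from genes with at least 100 fragments, were called (100%) and 0 unchanged genes were. The interval assumes that same error, so the simulation cannot give the rate of false calls between the real libraries. Nor does it cover changed genes with fewer fragments.

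The members and all gene lists were chosen with earlier results of these data known. All 36 members were named. Of each list of other pathway genes, up to 5 genes with the highest mean TPM and up to 5 called genes each way with a mean of at least 1 TPM could be named, and of marker lists up to 3 leading genes and those at or under the floor. Krt85 and Lorl were not matched by symbol, and some genes that the rule could name are not reported here. Alternatives were TMM (edgeR 4.0.16), DESeq2 1.42.0 size factors, spike-in totals, totals without mitochondrial and muscle genes, removal of the GC trend, other pseudocounts, filters, folds and units, and each library left out. Scripts ran in R 4.3.3 and in Python 3.11.15 with scipy 1.17.1, numpy 2.4.6, matplotlib 3.10.9 and pandas 2.3.3.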

Additional observations from a re-analysis of the deposited data

How the results depend on the processing

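The number of cornification genes called higher in replicate 1 was 20, beside 9.80% of all genes tested. It lay between 15 and 23 under the other scalings, folds and the GC correction. The 15 came at 4-fold, beside 2.77% of all genes, and the 23 at 1.5-fold, beside 20.7%. Where a mean of at least 1 TPM was required, the number fell to 11, beside 9.43% of all genes. The number called higher in replicate 2 was 0, beside 8.02% of all genes tested. With TMM it became 1, beside 9.37% of all genes, and with DESeq2 size factors 1, beside 10.05%. With spike-in totals it was 3 (Klk8, Sfn and Tgm1), beside 26.6%, and at 1.5-fold 2 (Klk8 and Sfn), beside 16.3%. Members detected in both libraries numbered 23, against 14 with a floor of 1 TPM. The median log2 difference was 0.44 with a pseudocount of 1 and 1.53 with 0.1. With one library left out in turn, detected members ranged between 23 and 31 and the summed TPM between 176 and 333. Spike-in totals lowered the median log2 ratio of all genes tested by 0.76, as its value was 0.13 with total counts and -0.63 with spike-in totals. The members' summed TPM of 255 was 196 without Cdsn, an alternative chosen after seeing the data. The causes of these shifts were not tested. Members with a few fragments, such as Ivl, Casp14 and Tgm5 in replicate 2, have wide intervals. The interval of Tgm3 was also wide, at -1.37 to 0.99. Under the main rule a difference under 2-fold could not be called for any member. No paired analysis was possible because the 2 libraries form 1 group, so no numbered pair spans 2 groups.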
